A study of Homo sapiens with 12 samples.

Results

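The tissue kallikreins examined here were 8 genes of the secreted serine protease family found in squamous epithelium, KLK5, KLK6, KLK7, KLK8, KLK9, KLK10, KLK11 and KLK13. They were taken by name from the count tables, which carried 33514 gene symbols. At least 1 transcript was counted for 7 of the 8, KLK9 had none in any sample, and the same 7 were among the 17897 genes with enough counts for testing. Single-cell RNA sequencing (scRNA-seq, 10x Genomics 3′ libraries) had been made from SCC1 (UM-SCC-1), SCC6 (UM-SCC-6) and SCC25, established lines of HNSCC, the squamous carcinoma of the head and neck. Each line was given the EGFR-blocking antibody cetuximab daily for 5 days (100 nM), or PBS as the untreated control, EGFR being the receptor for epidermal growth factor. Every line and treatment had 2 replicates, which gave 12 samples in 6 groups. The questions asked of the kallikreins were how far their levels differ between lines and whether 5 days of EGFR blockade altered them.

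Kallikreins are made as inactive precursors, and in the epidermis they are released by cells of the granular layer. Once cut by another protease, KLK5 can activate further kallikreins, and KLK5 and KLK7 together break down the junction proteins that hold the outermost cells, so that these are shed. Inhibitors from the same cells, foremost the SPINK5 product LEKTI, keep the cascade in check, and KLK5 can also signal through the protease-activated receptor encoded by F2RL1. Several members, KLK6 among them, are made in large amounts by carcinomas.

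All 8 genes lie side by side on the minus strand of chromosome 19. In the RefSeq annotation of GRCh38.p14 they span 122 kb, chr19:50943303-51065679, a stretch with 9 protein-coding genes of which only KLK12 was not a member. KLK5 (chr19:50943303-50953038) and KLK6 (chr19:50958631-50969591) are neighbours and were the most abundant members in SCC25 and in SCC6, respectively. For that reason the 250 bases before the start of each are shown, read 5′ to 3′ on the minus strand from RefSeq, at chr19:50953039-50953288 for KLK5 and chr19:50969592-50969841 for KLK6. Capitals mark TATAA, on either strand, in KLK5 and GGGCGG, on either strand, in KLK6.
KLK5: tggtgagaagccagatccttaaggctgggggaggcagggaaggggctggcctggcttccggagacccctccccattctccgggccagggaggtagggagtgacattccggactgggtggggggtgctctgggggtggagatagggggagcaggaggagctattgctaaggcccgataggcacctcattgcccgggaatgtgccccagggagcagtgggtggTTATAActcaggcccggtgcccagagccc
KLK6: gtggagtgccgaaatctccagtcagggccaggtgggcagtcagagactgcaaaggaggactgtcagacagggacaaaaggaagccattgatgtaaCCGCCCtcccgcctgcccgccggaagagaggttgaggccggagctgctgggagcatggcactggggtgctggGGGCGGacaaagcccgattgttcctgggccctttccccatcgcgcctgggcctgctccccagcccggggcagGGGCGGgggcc
The KLK5 window held TATAA on both strands, overlapping, and no GGGCGG. The KLK6 window held 3 copies of GGGCGG and no TATAA. Over 35116 windows of 250 bases before the starts in the same table, 18.9% held TATAA and 42.6% held GGGCGG, counting both strands. The 7 members with an entry, all but KLK8, had 12 such windows, of which 3 held TATAA, 8 held GGGCGG and 0 held TGACTCA, the letters of an AP-1 element, which 4.2% of all windows held. Windows of the same gene overlap in KLK7, KLK10 and KLK13, so that a site can be counted more than once. The windows with TATAA were of KLK5 and KLK7, where both KLK7 windows hold the same site. Those with GGGCGG were of KLK6, KLK7, KLK9, KLK11 and KLK13. These are matches of letters and nothing was measured on them here.

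The samples held 961 to 2854 cells each, 23914 in all, with 57057402 to 112170073 unique molecular identifiers (UMIs, 1 per captured transcript) per sample. The median cell had 24078.5 to 54864 UMIs, both extremes being cetuximab samples, of SCC6 and SCC1. Levels are given as CPM, UMI counts scaled to the library total after TMM scaling. A 3′ library counts the end of a transcript, so values were not divided by length, and capture may differ between genes. As a check on the labelled cell type, the 7 squamous markers summed to 5659 to 10184 CPM in SCC1 and 6288 to 13417 CPM in SCC25, but to 893 to 2995 CPM in SCC6, where KRT5 (1.39 ± 0.328 CPM, SD, n = 2) and KRT14 (0.678 ± 0.358 CPM) were almost absent without the antibody. Leukocyte markers summed to at most 13.5 CPM, mostly CD14, and endothelial markers to at most 0.660 CPM.

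In the untreated lines the kallikreins were scarce in SCC1 and plentiful in SCC25 and SCC6. Summed over the members, SCC1 PBS replicates 1 and 2 had 3.33 and 2.64 CPM, SCC25 had 163 and 204 CPM, and SCC6 had 496 and 590 CPM. These sums differed in make-up as well as in size. KLK6 made up 87.1% and 90.4% of the kallikrein UMIs in SCC6, whereas KLK5 made up 50.8% and 52.3% in SCC25, followed there by KLK8 and KLK10. The SCC1 sums rested on 238 and 252 UMIs.

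**Figure D1:**
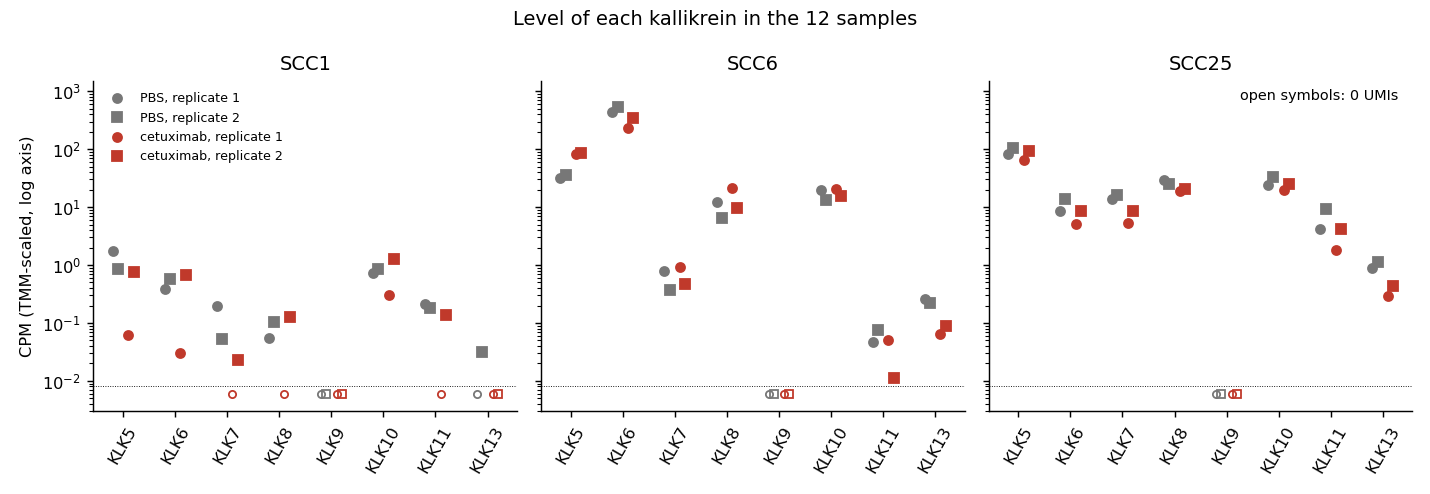
CPM after TMM scaling on a log axis for each of the 8 kallikreins, in SCC1, SCC6 and SCC25, with PBS in grey and cetuximab in red, circles for replicate 1 and squares for replicate 2, and open symbols for 0 UMIs. KLK6 stands highest in SCC6 at 235 to 534 CPM, KLK5 highest in SCC25 at 65.9 to 106.4 CPM, and KLK9 is at 0 throughout.

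KLK6, a trypsin-like protease best known from the central nervous system, showed the widest difference between any pair of lines, SCC6 and SCC1. Its PBS levels were 0.391 and 0.576 CPM in SCC1, 433 and 534 CPM in SCC6, and 8.71 and 13.6 CPM in SCC25. The 3 lines did not overlap, and the order was the same with cetuximab. By the quasi-likelihood test of edgeR on the summed counts, with p-values adjusted over all genes tested (FDR), KLK6 was higher in SCC6 than in SCC1 (log2 fold change 9.95 ± 0.93, SE; FDR 2.39e-05). It was lower in SCC25 than in SCC6 (log2 fold change -5.43 ± 0.75; FDR 0.00034) and higher in SCC25 than in SCC1 (4.51 ± 0.75; FDR 0.00104).

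KLK5, the trypsin-like starter of the epidermal cascade, gave 1.75 and 0.838 CPM in SCC1 PBS, 31.2 and 36.2 CPM in SCC6 PBS, and 82.8 and 106.4 CPM in SCC25 PBS. Both other lines were above SCC1 (log2 fold change 4.71 ± 0.69 in SCC6, FDR 4.55e-04, and 6.20 ± 0.74 in SCC25, FDR 1.34e-04). SCC25 and SCC6 did not overlap, but their difference of 1.49 ± 0.60 did not pass the threshold of 0.05 (FDR 0.0690; 0.0261 with the replicate number as a block). Thus in SCC6 there were 13.9 and 14.8 KLK6 UMIs for each KLK5 UMI, and in SCC25 there were 0.105 and 0.128.

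KLK7, the chymotrypsin-like enzyme that KLK5 activates, was chiefly an SCC25 transcript. SCC1 PBS had 14 and 5 UMIs, SCC6 PBS 0.800 and 0.370 CPM, and SCC25 PBS 13.8 and 16.1 CPM. SCC25 exceeded SCC6 by a log2 fold change of 4.68 ± 0.58 (FDR 1.70e-04), and SCC6 exceeded SCC1 by 2.29 ± 0.65 (FDR 0.0172). The second of these calls was lost without SCC1 PBS replicate 2 (FDR 0.133) or SCC6 PBS replicate 1 (FDR 0.121).

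KLK8, or neuropsin, described in both hippocampus and skin, had 4 and 10 UMIs in SCC1 PBS, 12.2 and 6.44 CPM in SCC6 PBS, and 29.1 and 24.6 CPM in SCC25 PBS. The SCC25 samples were above both SCC6 samples, with a log2 fold change of 1.53 ± 0.53 (FDR 0.0419), a call that was lost without any one of 6 libraries, both of SCC1 PBS, both of SCC25 PBS, SCC25 cetuximab replicate 1 or SCC6 PBS replicate 2 (FDR up to 0.204). KLK10, first described as a gene of normal breast epithelium that tumour cells lose, had 0.727 and 0.859 CPM in SCC1 PBS, 19.4 and 13.4 CPM in SCC6 PBS, and 23.6 and 32.4 CPM in SCC25 PBS. It did not pass between SCC25 and SCC6 (0.77 ± 0.46, FDR 0.205; with the replicate block FDR 0.0256). Both genes were higher in SCC6 and in SCC25 than in SCC1, KLK8 by 6.79 ± 0.75 and 8.32 ± 0.78 and KLK10 by 4.36 ± 0.53 and 5.14 ± 0.55 on the log2 scale.

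KLK11 and KLK13 were the scarcer members. KLK11, which like KLK8 is found in brain and skin, had 15 and 17 UMIs in SCC1 PBS, 4 and 7 UMIs in SCC6 PBS, and 4.25 and 9.16 CPM in SCC25 PBS. It was the only member not higher in SCC6 than in SCC1 (log2 fold change -1.61 ± 0.94, FDR 0.203), and SCC25 exceeded SCC6 by 6.72 ± 0.89 (FDR 2.66e-04). KLK13, found in stratified epithelia, had 0 and 3 UMIs in SCC1 PBS, 22 and 20 in SCC6 PBS, and 70 and 118 in SCC25 PBS. Per UMI sequenced, the SCC6 samples together held 13.3 times as many KLK13 UMIs as the SCC1 samples (95% exact interval for counting error 4.25 to 67.1), and the SCC25 samples 57.1 times as many (19.3 to 280). SCC25 was also above SCC6 in KLK13 (log2 fold change 2.07 ± 0.51, FDR 0.0104), which was lost without SCC25 PBS replicate 2 (FDR 0.0543) or SCC6 PBS replicate 2 (FDR 0.0614).

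In all, 6 of the 7 members tested were higher in SCC6 than in SCC1, where 21.5% of all genes tested were higher and 40.2% differed. All 7 were higher in SCC25 than in SCC1, against 23.4% of all genes higher and 40.8% different. Between SCC25 and SCC6, 4 members were higher in SCC25 and KLK6 was lower, against 22.2% and 18.7% of all genes, and with the replicate block all 7 differed, against 58.1% of all genes. The median log2 fold change of the members was 4.36, 5.73 and 1.53 in these 3 comparisons, and that of all genes was within 0.04 of 0. These comparisons share samples, and the replicate libraries may come from the same culture, in which case the p-values cover only the spread between libraries.

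**Figure D2:**
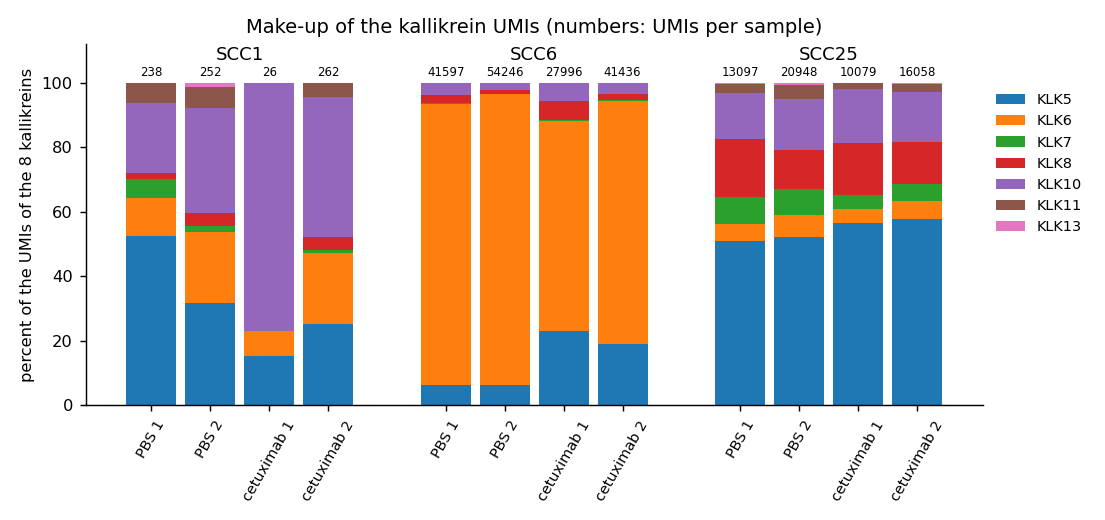
Percent of all kallikrein UMIs of a sample that came from each member, with the number of kallikrein UMIs above each bar. KLK6 fills most of each SCC6 bar, in which KLK5 takes a larger part with cetuximab (6.28% and 6.12% KLK5 in PBS, 22.9% and 19% in cetuximab), while the SCC25 bars keep KLK5 at 50.8% to 57.8%.

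Sums per sample cannot tell apart fewer cells with a transcript and fewer transcripts per cell, so the share of cells with a UMI was also taken, after thinning every cell to 15000 UMIs. KLK6 was found in 92.2% and 94.7% of SCC6 PBS cells and in 11.7% and 14.8% of SCC25 PBS cells. KLK5 was found in 20.9% and 27.2% of SCC6 PBS cells and in 47.9% and 46.9% of SCC25 PBS cells. In SCC1 no member reached more than 0.988% of cells in any sample. Genes that squamous cells should lack (PTPRC, CD3E, ALB, HBB) reached at most 0.137% of thinned cells, so that KLK7, KLK8, KLK11 and KLK13 in SCC1 and KLK11 in SCC6 were near that background, at 0 to 0.223%. KLK13 in SCC6 was in 0.377% and 0.287% of PBS cells. With cetuximab it too was near that background, at 0.116% and 0.244%. KLK9 was absent from all 938 to 2652 thinned cells per sample, which allows up to 0.113% to 0.320% of cells with a UMI (3 cells of the total).

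Cells were also counted by how many members they held. Of thinned SCC25 PBS cells, 18.0% and 20.7% had UMIs of at least 3 members, 20.7% and 20.6% had 2, and 30.6% and 31.0% had none. Of SCC6 PBS cells, 10.2% and 9.40% had at least 3 members, 31.1% and 31.6% had 2, 52.9% and 54.4% had exactly 1, and 5.77% and 4.64% had none. Pearson's r of log2(thinned UMIs + 1) was taken across the cells of each sample. In the SCC25 samples it was 0.30 to 0.38 for KLK5 and KLK10 and 0.31 to 0.37 for KLK5 and KLK8. For KLK5 and KLK7 it was 0.22 to 0.38. In SCC6 the pair KLK5 and KLK6 reached 0.15 to 0.23 and every other pair less than 0.19. Cells of a sample share a library and these correlations of sparse counts are descriptions. Cells with UMIs of both KLK5 and KLK10 were 1.42 to 1.5 times as frequent in SCC25 samples as the product of the separate shares gives.

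The SCC25 cells with at least 3 members were compared with those that had none, within each of the 4 samples, a split chosen after values were seen. KRT14 was higher in all 4, at 4326 to 8205 CPM against 1166 to 2309 CPM, as were KRT5 (1402 to 2847 against 752 to 1840 CPM) and TGM1, the transglutaminase that crosslinks the cornified envelope (7.50 to 19.2 against 1.20 to 3.01 CPM). Vimentin (VIM), a mesenchymal filament protein, was lower in all 4 (114 to 257 against 237 to 539 CPM). Other genes of terminal differentiation went both ways. CALML5 was higher in all 4 (1.18 to 3.48 against 0.399 to 0.797 CPM), KRTDAP, CNFN and SBSN in 3 of 4 and KRT1 in 2. DMKN was lower in all 4 (117 to 179 against 138 to 235 CPM), and IVL higher in 2 and lower in 2. KRT10, a keratin of the layers above the basal one, was lower in 3 of 4. When the SCC25 cells were split by a VIM UMI instead, cells with VIM had less KLK5 in all 4 samples (64.2 to 82.2 against 93.4 to 145 CPM), and likewise less KLK7, KLK8, KLK10 and KLK11, whereas KLK6 was lower in 2 samples and higher in 2. The SCC6 samples shared this only in part. There KLK5 was higher in cells with VIM in 3 of 4 samples, and KLK7 and KLK10 in 2 of 4. KLK6, KLK8 and the scarce KLK13 were lower in such cells in 3 of 4. Cells with a UMI of the cycle genes MKI67 or TOP2A had lower levels of all 7 detected members in all 4 SCC25 samples, for KLK5 55.7 to 85.8 against 81.4 to 118 CPM. In SCC6 this held in 4 of 4 samples for KLK6 (204 to 457 against 276 to 534 CPM), KLK8 and KLK10, and in 3 of 4 for KLK5 and KLK7.

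**Figure D3:**
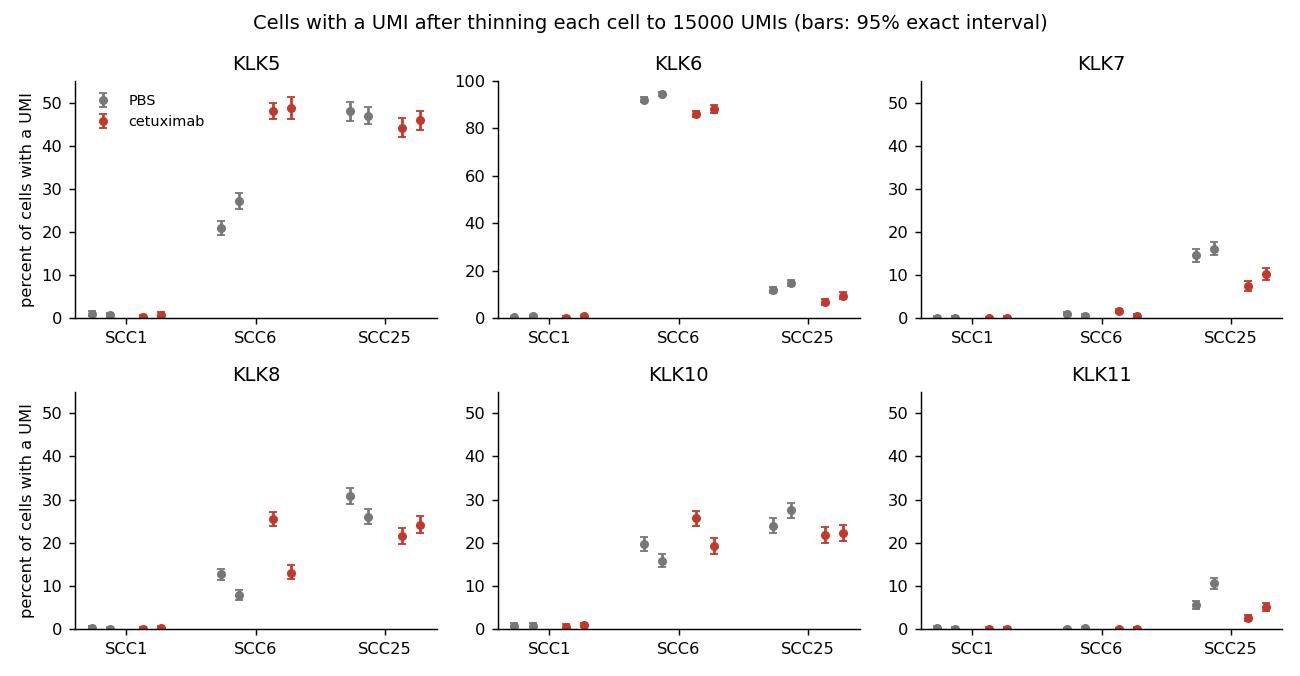
Percent of cells with at least 1 UMI after thinning each cell to 15000 UMIs, by line, with PBS in grey and cetuximab in red, 1 point per sample and bars for the 95% exact binomial interval, which covers counting error only. KLK6 reaches 86.3% to 94.7% of SCC6 cells, and KLK5 in SCC6 goes from 20.9% and 27.2% in PBS to 48.0% and 48.7% in cetuximab, where its SCC25 shares lie.

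In SCC1 the few kallikrein transcripts were concentrated in rare cells. The 1% of cells with most kallikrein UMIs held 70.2% to 80.3% of them in the SCC1 samples, against 7.69% to 9.80% in SCC25 and 4.71% to 6.26% in SCC6. This share is bound to be higher where UMIs are few. The SCC1 samples had 26 to 262 kallikrein UMIs and those of the other lines 10079 to 54246. Of 5270 SCC1 cells, 202 had any kallikrein UMI, and 29 cells (0.550%) with 5 or more UMIs held 520 of the 778 UMIs (66.8%). The limit of 5 was chosen after the values were seen. Those cells numbered 6 and 9 in the PBS samples and 1 and 13 in the cetuximab samples, and the richest had 73, 71, 7 and 53 kallikrein UMIs. Their UMIs were 187 of KLK5, 179 of KLK10, 79 of KLK6, 41 of KLK11, 19 of KLK7, 14 of KLK8 and 1 of KLK13, a mixture in which KLK6 did not dominate as it does in SCC6.

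The kallikrein-rich SCC1 cells also held more transcripts of several, but not all, listed genes of late squamous differentiation. KRTDAP was at 267 CPM in them and 2.56 CPM in other SCC1 cells, IVL (involucrin, a cornified envelope precursor) at 28.4 and 0.635 CPM, SBSN at 27.9 and 0.0937 CPM, and KRT1 at 27.9 and 0.219 CPM. Among inhibitors, PI3 (elafin) was at 274 and 7.88 CPM, SLPI at 169 and 27.1 CPM, and SPINK5 at 25.4 and 1.99 CPM, whereas the abundant SPINT1 (109 and 154 CPM) and SPINT2 (307 and 437 CPM) were lower. These sums rest on few cells, IVL and SPINK5 on 9, PI3 on 8, KRTDAP and SBSN on 5 and KRT1 on 3. KRT5 (601 and 494 CPM), KRT14 (1993 and 1878 CPM), KRT10 (294 and 249 CPM), DMKN (162 and 146 CPM) and TGM1 (9.29 and 6.92 CPM) were closer together. The terminal differentiation genes LOR and TGM3 were at 0 CPM in both sets of cells. MKI67 was at 64.0 and 139 CPM. By genes found in a single line, chosen after the values were seen, 28 of the 29 cells had a UMI of an SCC1 gene, 0 had a UMI of the 4 SCC6 genes, and 7 had a UMI of the 13 SCC25 genes (24.1%, against 11.9% of other SCC1 cells). The median SCC25 cell had 44 UMIs of those 13 genes and the median of the 29 cells had 0. Their median total was 61670 UMIs against 51045 in other SCC1 cells, and no doublet caller was run.

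**Figure D4:**
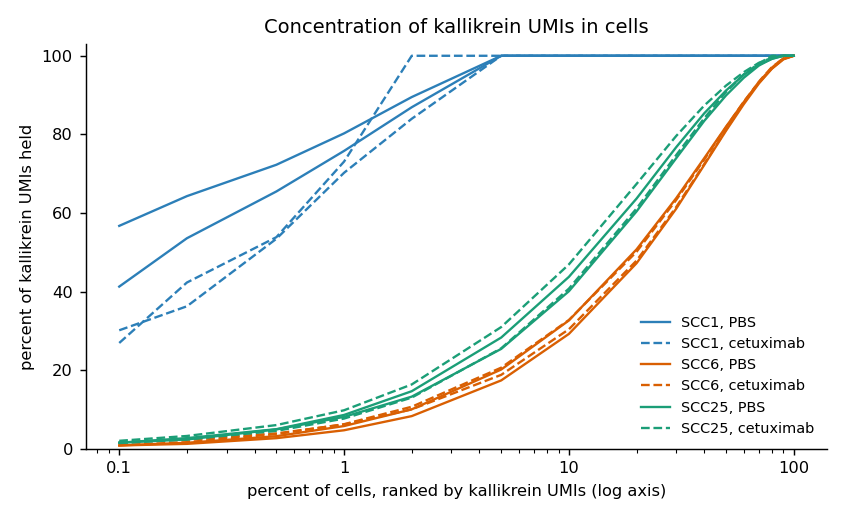
Percent of a sample's kallikrein UMIs held by its richest cells, against the percent of cells ranked by kallikrein UMIs on a log axis, with solid lines for PBS and dashed lines for cetuximab. The SCC1 curves reach 70.2% to 80.3% at 1% of cells, while the SCC25 and SCC6 curves are at 7.69% to 9.80% and 4.71% to 6.26% there. The SCC1 curves rest on 26 to 262 UMIs per sample.

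With cetuximab, no member passed the adjusted test of edgeR within a single line without the replicate block. With the block KLK13 passed in SCC6 (FDR 0.0471 by edgeR). The values of each line are given as measured. In SCC6, KLK5 had 31.2 and 36.2 CPM in PBS and 82.7 and 87.3 CPM in cetuximab, 2.65-fold and 2.42-fold more in samples of the same number. Without overlap between the groups, as for 25.5% of all genes tested in that direction, KLK5 still did not pass the adjusted test (log2 fold change 1.34 ± 0.59, FDR 0.245 by edgeR). KLK6 had 433 and 534 CPM in PBS and 235 and 345 CPM in cetuximab, 1.84-fold and 1.55-fold less, again without overlap (21.4% of all genes in that direction) and not past the test (-0.74 ± 0.62, FDR 0.559). There were therefore 2.84 and 3.96 KLK6 UMIs per KLK5 UMI in SCC6 cetuximab samples, against 13.9 and 14.8 in PBS.

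KLK8 in SCC6 had 12.2 and 6.44 CPM in PBS and 21.7 and 9.46 CPM in cetuximab. The groups overlapped, although each cetuximab sample was above the PBS sample of its number (1.78-fold and 1.47-fold; fitted 0.74 ± 0.52, FDR 0.478). KLK10 (0.14 ± 0.45) and KLK7 (0.26 ± 0.54) lay within their errors, with 19.4 and 13.4 CPM of KLK10 in PBS and 20.4 and 15.7 CPM in cetuximab. KLK13 had 22 and 20 UMIs in PBS and 5 and 8 UMIs in cetuximab, lower without overlap in CPM (21.4% of all genes in that direction). It passed only in the fit with the replicate block (log2 fold change -1.62 ± 0.46, FDR 0.0471, where 20.1% of all genes were called), and without the block it had an FDR of 0.173. KLK11 had 4 and 7 UMIs in PBS and 4 and 1 in cetuximab, too few to compare. By edgeR without the block, 0 of 7 members were called in SCC6, where 3.81% of all genes were, and DESeq2 called 0. An unadjusted p under 0.05 was found for 2 members without the block and for 4 with it. Without the block, 3561 of all 17897 genes tested had such a p. With the block, the count over all genes is not given here.

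In SCC25 the cetuximab levels of 5 members lay below both PBS levels. KLK7 had 13.8 and 16.1 CPM in PBS and 5.34 and 8.46 CPM in cetuximab, 2.58-fold and 1.91-fold less. KLK11 had 4.25 and 9.16 CPM in PBS and 1.84 and 4.21 CPM in cetuximab, 2.31-fold and 2.18-fold less. Groups without overlap and lower with cetuximab were KLK6 (8.71 and 13.6, then 5.02 and 8.63 CPM, which almost touch), KLK7, KLK8 (29.1 and 24.6, then 18.9 and 20.6 CPM), KLK11 and KLK13 (70 and 118, then 25 and 44 UMIs), as were 15.3% of all genes tested. KLK5 (82.8 and 106.4, then 65.9 and 91.7 CPM) and KLK10 (23.6 and 32.4, then 19.6 and 24.6 CPM) overlapped. None passed in SCC25 by edgeR, where 0% of all genes were called, DESeq2 called 0 members, and 2 members had an unadjusted p under 0.05, namely KLK13 (log2 fold change -1.47 ± 0.49, FDR 0.693) and KLK7 (-1.12 ± 0.49, FDR 0.85). Of all 17897 genes tested, 1041 had an unadjusted p under 0.05 in SCC25. The fitted values of the other 5 members ranged from -0.26 ± 0.58 for KLK5 to -1.15 ± 0.64 for KLK11. With the replicate block 0 members were called in SCC25 and 3 had an unadjusted p under 0.05, again without the count over all genes.

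In SCC1 the cetuximab replicates disagreed. Cetuximab replicate 1 had 26 kallikrein UMIs in all and cetuximab replicate 2 had 262, against 238 and 252 in PBS. KLK5 had 1.75 and 0.838 CPM in PBS and 0.0613 and 0.754 CPM in cetuximab, which do not overlap, as for 20.4% of all genes in that direction. The fitted change of -1.59 ± 0.68 had an FDR of 0.536. KLK10 had 0.727 and 0.859 CPM in PBS and 0.306 and 1.29 CPM in cetuximab, on both sides of the PBS levels. KLK6 (0.391 and 0.576, then 0.0306 and 0.662 CPM) and KLK8 (4 and 10, then 0 and 11 UMIs) overlapped likewise. KLK7 had 14 and 5 UMIs in PBS and 0 and 2 in cetuximab, but 12 of the 14 came from 1 cell. KLK11 had 15 and 17 UMIs in PBS and 0 and 12 in cetuximab, of which 1 cell of each held 9, 13 and 9. KLK5, KLK7 and KLK11 were the members without overlap in SCC1. By edgeR 0 members were called, against 0.0168% of all genes, and DESeq2 called 0. An unadjusted p under 0.05 by edgeR was found for 2 members (KLK5 and KLK7) and for 1570 of all 17897 genes tested.

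Taken over the 3 lines in an additive fit, KLK13 was lower with cetuximab (log2 fold change -1.60 ± 0.36, FDR 0.0338 by edgeR; 0.0195 with the replicate block, where 11.6% of all genes were called). It was the single member called, where 3.67% of all genes were called and 1.13% were lower. Its UMIs were 22 and 20, then 5 and 8 in SCC6, 70 and 118, then 25 and 44 in SCC25, and 0 and 3, then 0 and 0 in SCC1, so that the value rests on SCC6 and SCC25. The call was lost without any of 8 of the 12 libraries, SCC1 cetuximab replicate 1, SCC1 PBS replicate 2, SCC25 cetuximab replicate 1, SCC25 PBS replicate 2 and each SCC6 library, with an FDR of up to 0.0796, while the log2 fold change stayed between -1.79 and -1.49 over all 12. KLK11 (-1.18 ± 0.45, FDR 0.158) passed in DESeq2 alone (-1.21, FDR 0.0480). KLK6 (-0.65 ± 0.35, FDR 0.322) and KLK7 (-0.75 ± 0.42, FDR 0.342) did not pass, and KLK5, KLK8 and KLK10 lay between -0.07 and 0.10.

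**Figure D5:**
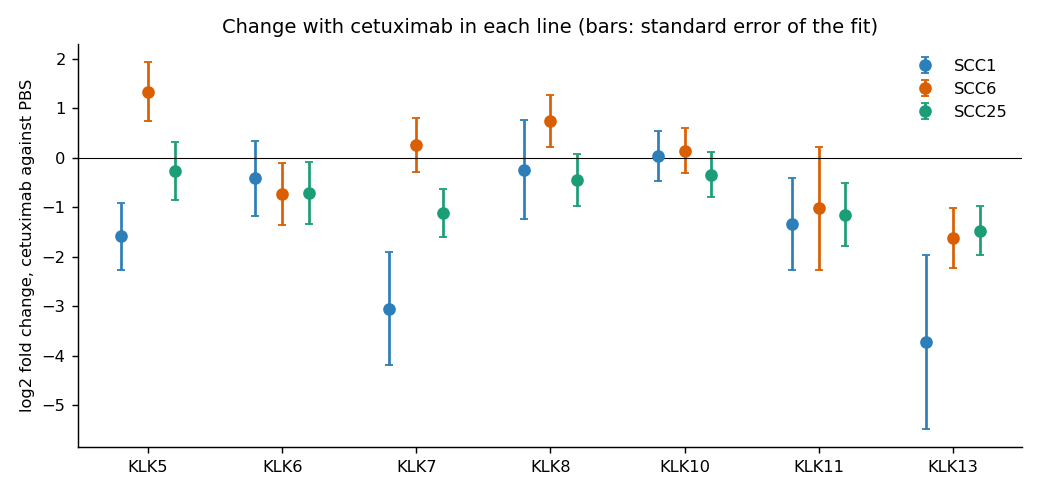
Fitted log2 fold change of cetuximab against PBS for the 7 tested kallikreins in SCC1, SCC6 and SCC25, with bars for the standard error. KLK13 is below 0 in the 3 lines (in SCC1 on 3 UMIs), and KLK5 is at 1.34 in SCC6 and -0.26 in SCC25. The SCC1 bar is the widest for each member except KLK11, where that of SCC6 is widest.

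A line-by-treatment interaction term asked if cetuximab moved a member by unequal amounts in the 3 lines. By edgeR 0 members were called, as were 0% of all genes, and DESeq2 called 0. An unadjusted p under 0.05 by edgeR was found for 1 member (KLK5, FDR 0.590) and for 1318 of all 17897 genes tested. For KLK7 the FDR was 0.691 and for the other 5 it was at least 0.971.

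The shares of cells moved with the sums. After thinning, KLK5 was in 48.0% and 48.7% of SCC6 cetuximab cells against 20.9% and 27.2% in PBS, and KLK6 in 86.3% and 88.3% against 92.2% and 94.7%. Without thinning the KLK5 shares were 57.6% and 74.3% against 32.8% and 44.1%, and the median cell of the cetuximab samples had 24078.5 and 50156 UMIs. In SCC25, KLK7 was in 7.40% and 10.2% of cetuximab cells against 14.6% and 16.1% in PBS, and KLK11 in 2.45% and 5.02% against 5.53% and 10.5%, while KLK5 shares stayed within 44.2% to 47.9%. Without thinning KLK7 was in 16.2% and 23.4% of cetuximab cells against 28.9% and 31.2%. SCC6 cells with at least 3 members were 25.7% and 17.9% in cetuximab against 10.2% and 9.40% in PBS, while in SCC25 they were 12% and 15.0% against 18.0% and 20.7%. No test was made of these shares.

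Other features of the samples moved with the antibody. The share of thinned cells with MKI67 or TOP2A was 65.4% and 72.2% in SCC6 PBS and 51.2% and 56.4% in cetuximab, and the share with VIM 18.5% and 35.3% in PBS and 92.0% and 92.3% in cetuximab. KLK5 in SCC6 was at 24.5 and 36.9 CPM in PBS cells without the cycle genes and at 90.2 and 103.1 CPM in such cetuximab cells. In cells without VIM it was at 25.7 and 33.2 CPM in PBS and at 69.6 and 96.1 CPM in cetuximab. KLK7 in SCC25 cells without the cycle genes was at 17.6 and 20.6 CPM in PBS and at 8.45 and 10.7 CPM in cetuximab. The summed fibroblast markers were 1.11 to 3.06 CPM in SCC6 PBS and 19.6 to 23.3 CPM in cetuximab, mostly COL1A1, with PDGFRA at 0 in PBS, and in SCC25 they were 19.7 to 40.6 CPM and 39.9 to 76.8 CPM. Their part in the kallikrein values was not tested.

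Genes that act with the kallikreins were counted from fixed lists. Of the 8 inhibitors, 5 could be tested. SLPI, an inhibitor of serine proteases, fell in SCC6 with cetuximab, from 601 and 445 CPM in PBS to 76.2 and 81.0 CPM (log2 fold change -2.73 ± 0.48, FDR 0.0167), and 0 inhibitors rose. PI3 in SCC6 went from 5.44 and 5.29 CPM to 0.309 and 0.265 CPM, with FDR 0.0642, and 0.0140 with the replicate block. SPINT2, the most abundant inhibitor, SPINT1 and SPINK5 did not pass with cetuximab in any line. Of 3 tested proteases that can act upstream, ST14 (matriptase), PRSS8 and PLAU (urokinase), and of 7 tested substrates and receptors, 0 were called with cetuximab by edgeR in any line, with unadjusted p under 0.05 for 0 of the former and for 1 substrate or receptor in SCC1, 1 in SCC6 and 2 in SCC25. F2RL1 in SCC25 (5.88 ± 0.285 CPM in PBS, 14.6 ± 1.98 CPM in cetuximab; n = 2) passed only with the replicate block (log2 fold change 1.3 ± 0.16, FDR 0.0161).

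Among 9 tested genes of terminal differentiation, TGM1 rose in SCC6 with cetuximab, from 0.788 and 0.751 CPM to 2.31 and 4.33 CPM (log2 fold change 2.11 ± 0.50, FDR 0.0457), and 0 were lower without the replicate block. With the block, 2 of the 9 were called higher in SCC6 and 1 lower, where 20.1% of all genes were called. The block also called 1 of the 9 higher in SCC1 and 0 in SCC25. In SCC25, TGM1 had 3.45 and 8.21 CPM in PBS and 2.70 and 5.19 CPM in cetuximab (-0.56 ± 0.46, FDR 1). Of the 9 transcription factors of squamous differentiation, 0 were called with cetuximab by edgeR without the block, 0, 3 and 1 having an unadjusted p under 0.05 in SCC1, SCC6 and SCC25. With the block, 2 of them were called in SCC6, both lower, and 0 in SCC1 and SCC25. Between untreated lines, SLPI was higher in SCC6 than in SCC1 (log2 fold change 4.24 ± 0.51) and than in SCC25, while SPINK5 was highest in SCC25 at 4.46 ± 0.650 CPM. ST14 and PLAU were lower in SCC6 and in SCC25 than in SCC1, the line with fewest kallikrein transcripts. ST14 had 104 ± 9.55 CPM in SCC1, 44.7 ± 2.34 CPM in SCC6 and 60.1 ± 16.1 CPM in SCC25.

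Of the 7 remaining tissue kallikreins, KLK1 and KLK4 could be tested. KLK1, which releases kinins, was an SCC25 transcript with 11 and 11.8 CPM in PBS and 6.23 and 6.52 CPM in cetuximab (log2 fold change -0.84 ± 0.33, FDR 0.776), and over the 3 lines it had -0.83 ± 0.22 (FDR 0.0597; 0.0163 with the replicate block). KLK4, the enamel protease, had 0 UMIs in SCC1 PBS, 19 and 17 in SCC6 PBS and 12 and 30 in SCC25 PBS, at least 11.4-fold and 12.8-fold higher than SCC1 at a floor of 3 UMIs over the group.

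Finally, genes with the most similar pattern were sought over the 12 samples, by Pearson's r of log2(CPM + 1) among 7558 genes with a mean of at least 10 CPM. For KLK5 these were LINC01980 (0.989), NPC2 (0.986) and GCNT1 (0.986), and for KLK10 ANKH (0.993), NPC2 (0.992) and SECISBP2 (0.990). For KLK8 they included CRIP1 (0.992) and FHOD3 (0.986), and for KLK6 they were SMARCA4 (0.990), NMRAL1 (0.989) and CEP126 (0.988). Among the members, KLK5, KLK8 and KLK10 had r of 0.974 to 0.985 with each other, and KLK6 had 0.595 to 0.674 with them. The 12 points fall into 3 lines, so these values describe little more than the order of the lines.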

How the data were processed

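Each of the 12 samples was a single-cell RNA library of 1 line and treatment. Per the labels, the authors aligned the reads to GRCh38 with Cell Ranger (version not given in the sources used here). The deposited values were raw UMI counts per gene and cell, in 1 table per line, with 33538 genes under 33514 symbols. Counts of the same symbol were added, and all 23914 cells and all columns were used. Groups and replicate numbers came from the labels, which speak of duplicates, so that p-values may cover technical spread only. Samples shared 1 to 13 cell barcodes with samples of other groups and 3 to 10 with their replicate.

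UMI counts were summed per sample, since cells are not replicates, and tested with edgeR 4.0.16 (R 4.3.3; TMM, filterByExpr, glmQLFit), with 1 mean per group, Benjamini-Hochberg adjustment over 17897 genes and a threshold of 0.05. DESeq2 1.42.0 and a replicate block were among the alternatives. Same-numbered samples of a line deviated together over the genes tested (r 0.642 in SCC1, 0.540 in SCC6, 0.688 in SCC25), so the block treated the numbers as pairs. Whether they mark samples cultured or processed together is not stated in the labels. On simulated counts of the SCC6 comparison (17279 genes), 13.1% of changes of 1 and 90.1% of changes of 2 on the log2 scale were recovered. The simulation gave all genes the same spread, without pairing of samples, and placed changes only in the more abundant genes. These rates therefore do not apply to scarce members such as KLK11 and KLK13. For shares, cells were thinned to 15000 UMIs (23063 kept, 851 left out, 0.847% to 9.18% per sample), and intervals are exact at 95% and cover counting error only. Promoter windows and positions are from RefSeq (GRCh38.p14). The members, gene lists and tests were chosen with earlier results of these data known. All 8 members are named throughout, and genes of the lists where called or among the 3 most abundant of their list, or as a named contrast chosen after their values were seen. Of the genes most similar to KLK8, 1 is not reported here.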

Additional observations from a re-analysis of the deposited data

Results flagged for a closer look

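The members below went one way with cetuximab in both replicates of one line and the opposite way in both of another, comparing samples of the same number. The share of all genes that did so was not counted, so the flag alone says nothing particular about the kallikreins. For KLK5 the fitted log2 fold change in SCC1 minus that in SCC6 was -2.92, and that in SCC6 minus that in SCC25 was 1.60. In SCC1, KLK5 had 125 then 4 UMIs in replicate 1 and 80 then 66 in replicate 2. The log2 fold change in SCC6 minus that in SCC25 was 1.38 for KLK7, 1.18 for KLK8 and 0.48 for KLK10. Both KLK10 changes were within their standard errors (0.14 ± 0.45 in SCC6 and -0.34 ± 0.45 in SCC25). By the line-by-treatment interaction of edgeR over all genes, none of these differences passed (FDR 0.590 for KLK5, 0.691 for KLK7, 0.971 for KLK8 and 1 for KLK10).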

How the results depend on the processing

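Of the counts of members called, most were within 1.5 times their first value. With the replicate number as a block, KLK13 was called in SCC6 and the count was 1 in place of 0, and 7 members in place of 5 differed between untreated SCC25 and SCC6. DESeq2 called 2 members across the 3 lines, KLK11 joining KLK13. Without the low-count filter 1 member (KLK5, FDR 0.0349) had a change that differed between lines. With each library left out in turn, the count ran from 0 to 1 across the lines and from 3 to 6 for untreated SCC25 against SCC6, the 3 being without SCC25 PBS replicate 2 and without SCC6 PBS replicate 2. The causes were not tested, although each omission leaves fewer samples. The block changed the sign of KLK10 in SCC1 (-0.078) and of KLK5 across the lines (0.018), both close to 0 in either fit, and changed no call of a member other than KLK13 in SCC6 and KLK5 and KLK10 between untreated SCC25 and SCC6. Leaving out libraries moved uncalled log2 fold changes across 0, in SCC1 from -3.93 to 0.43 for KLK6, from -5.86 to 0.58 for KLK8 and from -1.37 to 0.69 for KLK10. In SCC6 they ran from -0.29 to 0.91 for KLK7 and from -0.11 to 0.42 for KLK10, and across the lines from -0.34 to 0.26 for KLK5, from -0.26 to 0.23 for KLK8 and from -0.32 to 0.076 for KLK10. In SCC1 the member levels rest on 26 to 262 UMIs per sample, so a change there is limited by depth and by the few cells that hold them.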
